A study of Homo sapiens with 8 samples.

Results

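The 35 genes described here encode proteins that transcribe ribosomal RNA, modify and cut it, and assemble it into ribosomal subunits in the nucleolus, together with MYC, the transcription factor known for driving these genes. They were taken by symbol from the gene table of the study, which lists 26716 genes. All 35 were found, and all 35 were among the 17715 genes with enough counts to be tested. The cells were HepG2, an established human liver cancer line, and polyadenylated RNA was sequenced in 8 libraries. Every group received a mimic and an siRNA or their controls for 72 h, so that the control group was transfected as well. NC received the control mimic at 1 nM and the control siRNA at 30 nM, and the group named miR-552-3p received the miR-552-3p mimic at 1 nM with the control siRNA at 30 nM. The group named si-importin8-NC received the importin8 siRNA at 30 nM with the control mimic at 1 nM, and si-importin8-miR-552-3p received both active agents at the same doses. These are called control, mimic, siRNA and double cells below. The deposited tables abbreviate the library names, and those with a 5 before the replicate number were read as mimic libraries, without a key from the authors. Each group held 2 libraries, which the design text of the series describes as 2 experiments, in this 1 cell line. Neither source states whether these were independent cultures, so the p-values describe spread between libraries that may be technical only.

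Ribosome production begins with transcription of ribosomal DNA by RNA polymerase I in the nucleolus. The precursor is modified by small nucleolar ribonucleoproteins, of which the box C/D class guides ribose methylation and the box H/ACA class guides pseudouridylation. Assembly factors then fold and cut it into the small and the large subunit. MYC, with its partner MAX, binds the E-box motif and is known for raising many genes of this pathway in growing and malignant liver cells. miR-552-3p is a microRNA, a short RNA that pairs with transcripts through its seed, and importin8, encoded by IPO8, is a nuclear import receptor known to bind Argonaute proteins, which carry microRNAs. The title of the study names the nuclear receptors FXR and LXR, and the crossed design allows each agent to be read with and without the other.

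Library totals were even, at 21608563 to 22102373 expected counts. An unnamed gene was the most abundant, with 11.3 and 11.6% of all counts in the control libraries and 6.90 to 8.92% in the other 6. Over all genes tested, the first principal component held 51.4% of the variance and placed control cells at -88.8 and -94.3, siRNA cells at -19.3 and -24.7, double cells at 41.1 and 38.3 and mimic cells at 75.3 and 72.4. Control and mimic cells thus lay at opposite ends. On the second component (23.5%) siRNA cells, at -56.3 and -54.8, and double cells, at -28.4 and -25.9, lay apart from control cells at 36.9 and 38.7 and mimic cells at 44.8 and 45.1. IPO8 (chr12:30628988-30695986, minus strand) was measured at 34.7 and 33.3 CPM (counts relative to the library total, scaled for library composition) in control cells, 25.4 and 24.6 in mimic cells, 11.3 and 11.5 in siRNA cells, and 7.65 and 8.30 in double cells. The siRNA lowered it by a log2 fold change of -1.57 ± 0.08 (SE) with the control mimic and -1.65 ± 0.09 with the mimic, and the mimic lowered it too, by -0.44 ± 0.08 and -0.52 ± 0.09 (edgeR's quasi-likelihood test, Benjamini-Hochberg adjusted p 4.5e-07, 1.4e-06, 0.00083 and 0.0022). All 10 hepatocyte markers were detected. Their summed levels were 59850 to 65990 CPM in control cells and 47550 to 48500 in mimic cells. In siRNA cells they were 61600 to 63660, and in double cells 68820 to 72700. Of 7 fibroblast markers summing to 8.58 to 19.9 CPM, DCN and LUM had no counts in control cells, mimic cells and siRNA cells. The 5 endothelial markers, of which TEK had no counts in those 3 groups, summed to 75.4 to 81.2 CPM in control cells and 19.5 to 30.7 CPM elsewhere, mostly from PECAM1. Of the 5 blood cell markers in the table, LYZ gave most of a sum of 2009 to 2396 CPM in control cells, 975 to 980.3 in mimic cells, 1917 to 1972 in siRNA cells and 1484 to 1491 in double cells. The part of these differences in the results below was not tested.

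The mature sequence of the microRNA is shown with its seed, bases 2 to 8, in capitals, because the mimic carries it and the transcripts below were searched for its complement. It lies on chr1:34669614-34669634, minus strand (RefSeq, GRCh38.p14).
hsa-miR-552-3p: aACAGGUGacugguuagacaa
The letters complementary to this seed, CACCTGT, were found in the 3′ untranslated region of 6 of the 35 genes (17.1%) in GENCODE release 29 and in 16.4% of 13579 tested genes with such a region. The genes were NOP10, NOP14, POLR1A, POLR1B, WDR12 and WDR43, and the match in the first and the last of these is shown in capitals.
NOP10: ttttctgcCACCTGTtacccc
WDR43: ttttttccCACCTGTgaatat
The untranslated regions of the 35 genes were shorter, with a median of 465 bases against 956. None of these 6 genes was called lower with the mimic, with control siRNA (29.5% of all genes tested were) or with importin8 siRNA (16.7%). Only 2 of the 35 were called lower in each of these comparisons, too few to show whether a match goes with a fall. Whether the seed acts on these transcripts was not tested. UBTF and LYAR, the 2 of the 35 that were lower with the mimic under control siRNA, held no match in these transcripts.

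The 35 genes were lowest in the doubly controlled cells. Summed over the genes, the level was 2941 and 2673 CPM in control cells, 4216 and 4245 in mimic cells, 4076 and 4085 in siRNA cells, and 4545 and 4411 in double cells. Control cells thus stood below every other library, and these 6 libraries lay close together. Control cells had the lowest group mean of the 4 groups for 30 of the 35 genes (85.7%), against 32.6% of all genes tested. The highest mean was in double cells for 16 genes (45.7%), against 16.2% of all genes tested. It was in mimic cells for 11 (31.4% against 29.7%) and in siRNA cells for 7 (20% against 20.6%), both near the share over all genes. LYAR alone was highest in control cells, where 33.4% of all genes tested were. CPM is a share of the library, so these values do not separate more RNA per cell from a change in the other RNAs, nor a change in all cells from a change in some.

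**Figure D1:**
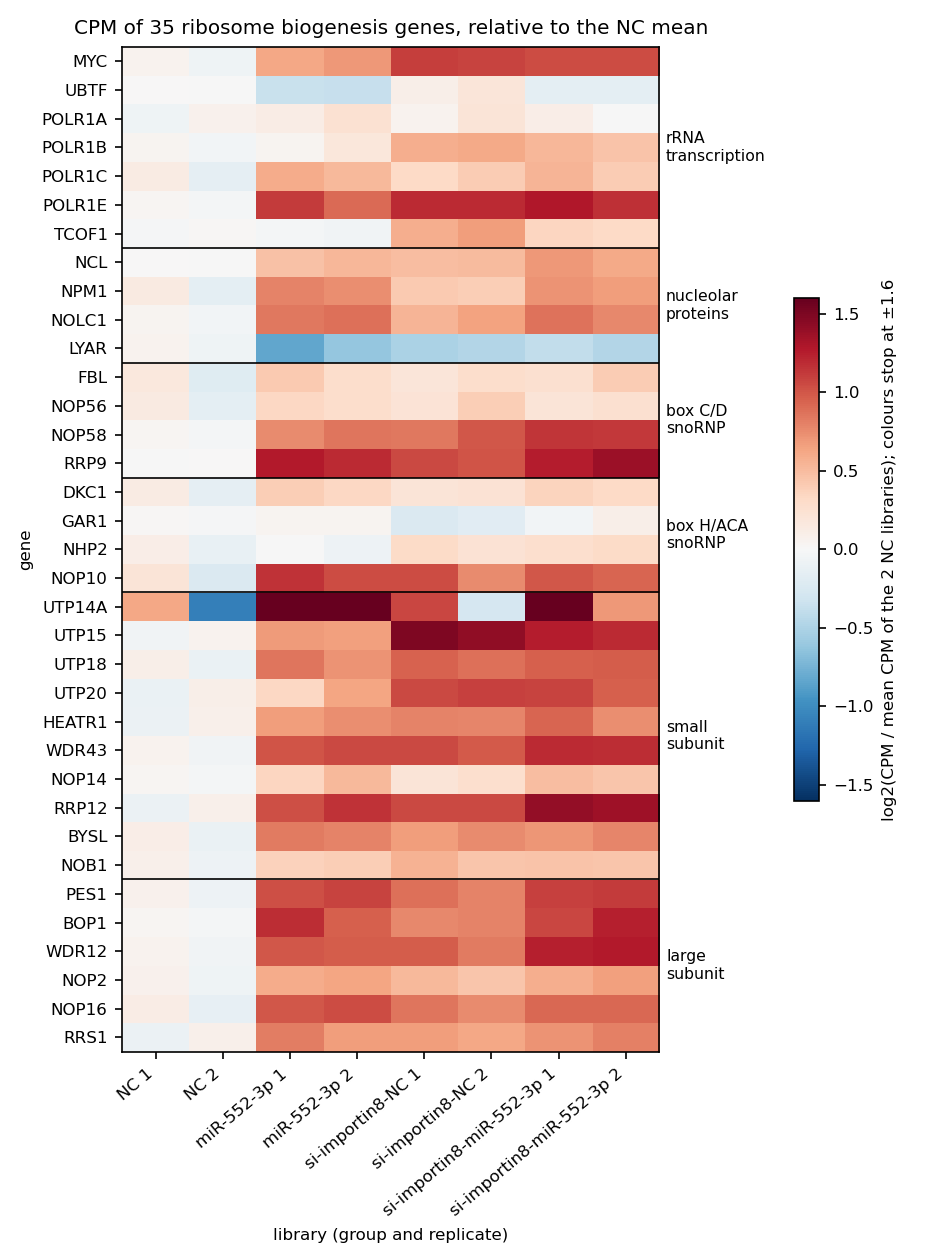
Level of each of the 35 genes (rows, grouped by role) in each of the 8 libraries (columns), as log2 of its CPM over the mean CPM of the 2 control libraries; colours stop at 1.6 in either direction. Most rows turn red outside control cells, LYAR turns blue, and the UTP14A row differs between replicates.

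With the mimic under control siRNA, 27 of the 35 genes were higher, where 28.9% of all genes tested were, and 2 were lower, where 29.5% were. Over both directions, 58.4% of all genes tested were called. The median log2 fold change of the 35 was 0.66 (range -0.72 to 2.40), and that of all genes tested was -0.01. The upper end of 2.40 is UTP14A, a gene of low counts that was not called. With the importin8 siRNA and control mimic, 28 were higher (25.4% of all genes) and 1 was lower (21.6%), where 47.0% of all genes were called in either direction, with a median of 0.63 (range -0.48 to 1.46) against 0.00. These comparisons share the control libraries and are not independent of each other. Adding the second agent moved fewer genes, among the 35 and over all genes tested alike. With the mimic under importin8 siRNA, 31.4% of the 35 and 31.7% of all genes were called in either direction. With the siRNA in mimic-treated cells these shares were 31.4% and 33.5%. Under importin8 siRNA, the mimic raised 9 genes (15.0% of all genes) and lowered 2 (16.7%), with a median of 0.11 (range -0.30 to 2.14). With library totals in place of composition scaling these counts became 4 and 3, and those over all genes tested went from 2649 higher and 2958 lower to 2107 and 3638. Without siRNA replicate 2 they became 2 and 1. The upper end of 2.14 under importin8 siRNA is UTP14A as well, again not called. In mimic-treated cells the siRNA raised 11 genes (17.3% of all genes) and lowered none (16.2%), with a median of 0.09 (range -0.14 to 0.56). No gene was lower there at an unadjusted p under 0.05 in edgeR's test either, and DESeq2 and limma-voom called none lower. DESeq2 called 7 higher, as did edgeR's test without mimic replicate 1, without double replicate 1 or without double replicate 2.

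**Figure D2:**
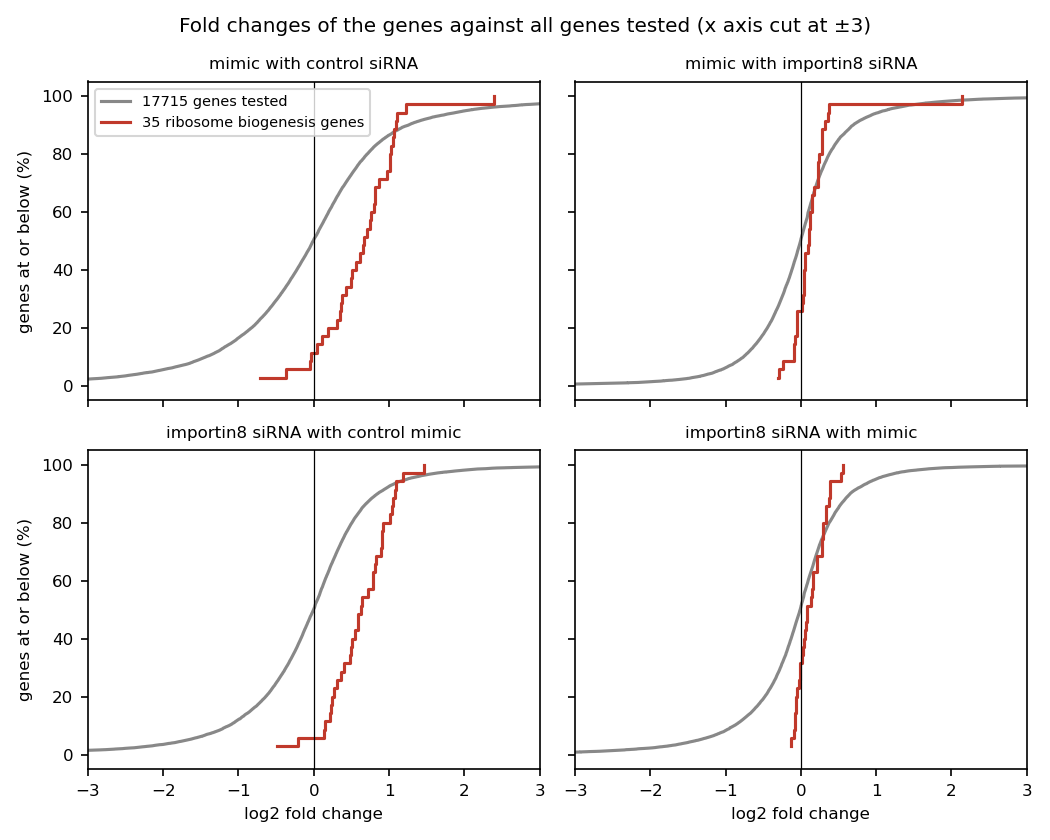
Share of genes (y axis, percent) at or below each log2 fold change (x axis, drawn from -3 to 3) for the 35 genes (red) and the 17715 genes tested (grey), in 4 comparisons. The red curve lies to the right of the grey over most of its length where a single agent was added, with medians of 0.66 and 0.63, and near it where the second agent was added, with medians of 0.11 and 0.09.

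Genes for transcription of ribosomal RNA moved unevenly. MYC was measured at 141 and 129 CPM in control cells, 207 and 218 in mimic cells, 291 and 285 in siRNA cells, and 278 and 278 in double cells. Both agents raised it, and the importin8 siRNA groups stood above the mimic group without overlap. The mimic alone raised MYC by a log2 fold change of 0.66 ± 0.07 (1.57-fold, adjusted p 1.5e-05 in edgeR's test), and the siRNA alone by 1.09 ± 0.07 (2.13-fold, adjusted p 1.1e-06). Under importin8 siRNA the mimic gave -0.05 ± 0.07 (adjusted p 0.61), whereas the siRNA still raised MYC in mimic-treated cells, by 0.39 ± 0.07 (adjusted p 0.0014). POLR1E, a subunit of RNA polymerase I, had 11.1 and 10.7 CPM in control cells and 20.4 to 26.5 in the other 6 libraries. It was 2.02-fold higher with the mimic and 2.28-fold higher with the siRNA. TCOF1 (chr5:150357629-150400308, plus strand; GENCODE release 29, GRCh38, as for all gene positions here) encodes treacle, a nucleolar protein that supports polymerase I, and was highest in siRNA cells. Its levels were 67.6 and 68.9 CPM in control cells, 67.0 and 65.7 in mimic cells, 102 and 108 in siRNA cells, and 86.8 and 85.2 in double cells. The siRNA raised TCOF1 by 0.63 ± 0.06 and 0.37 ± 0.06 without and with the mimic (adjusted p 1.6e-05 and 0.00084, edgeR). The mimic lowered it under importin8 siRNA, by -0.29 ± 0.06 (adjusted p 0.0036), and gave -0.04 ± 0.06 (adjusted p 0.58) under control siRNA.

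POLR1B, the second-largest polymerase I subunit, was also higher in the importin8 siRNA groups, at 47.1 and 44.3 CPM in control cells, 46.9 and 51.9 in mimic cells, 68.0 and 69.2 in siRNA cells, and 66.0 and 62.9 in double cells. It rose with the siRNA by 0.59 ± 0.07 and 0.38 ± 0.07 (adjusted p 8.4e-05 and 0.0022, edgeR), and the mimic gave 0.11 and -0.09, neither of them called. UBTF (chr17:44205033-44221626, minus strand), which binds ribosomal DNA and opens it for transcription, was the gene of this set that the mimic lowered in both siRNA arms. Its levels were 56.3 and 56.0 CPM in control cells, 43.9 and 43.3 in mimic cells, 60.1 and 64.1 in siRNA cells, and 50.5 and 50.2 in double cells. The mimic-treated libraries lay below the others within each siRNA arm, with log2 fold changes of -0.36 ± 0.06 and -0.30 ± 0.06 (adjusted p 0.00056 and 0.0044, edgeR). The call under importin8 siRNA was lost without siRNA replicate 2, at -0.25 with adjusted p 0.0524. UBTF rose with the siRNA in mimic-treated cells by 0.21 ± 0.06 (adjusted p 0.027), and this call was lost in 6 of 17 alternatives, among them leaving out any library of the 2 groups compared (adjusted p 0.0825 to 0.115). POLR1C, shared with RNA polymerase III, was called higher with each agent alone, by 0.56 ± 0.11 with the mimic and 0.36 ± 0.11 with the siRNA. The latter call was lost without control replicate 2 or siRNA replicate 2, at 0.24 and 0.32 (adjusted p 0.126 and 0.103). POLR1A, the largest catalytic subunit, ran from 62.1 to 77.6 CPM over the 8 libraries and was called in none of the comparisons, except with the mimic under control siRNA when control replicate 2 was left out (0.26, adjusted p 0.043).

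**Figure D3:**
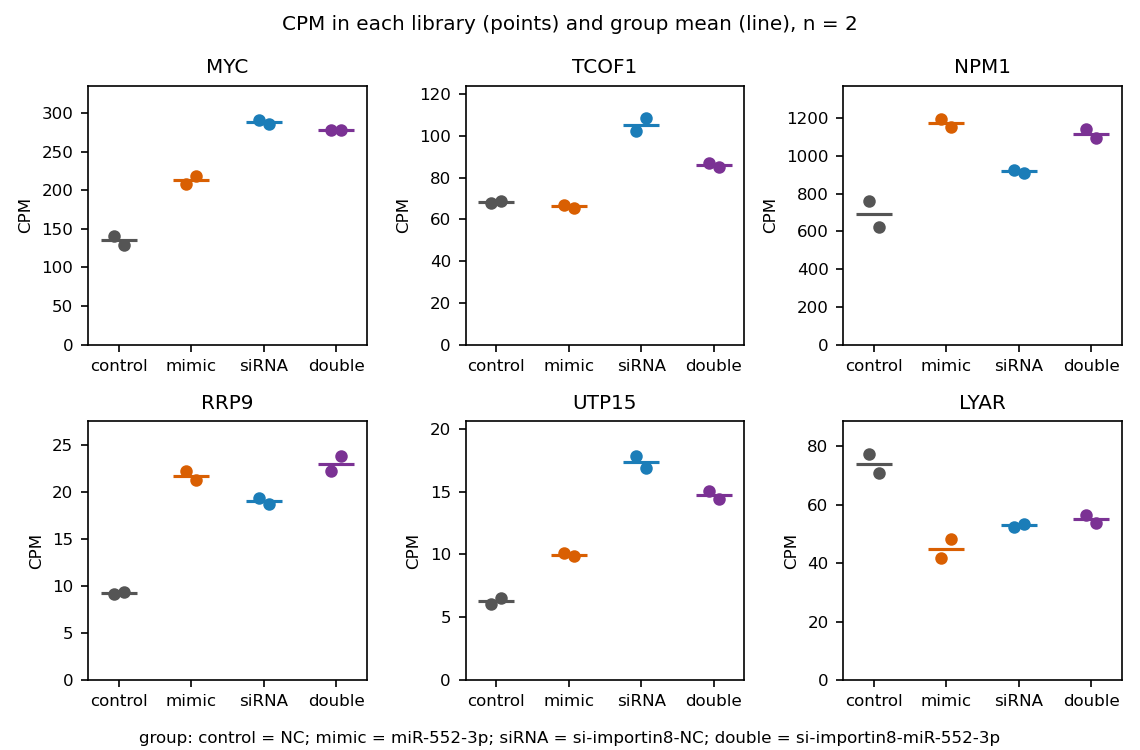
CPM (y axis from 0) of 6 of the genes in each library (points) with the group mean (line), 2 libraries per group. MYC and UTP15 are highest with the importin8 siRNA, TCOF1 is highest in siRNA cells, NPM1 and RRP9 stand lowest in control cells, and LYAR stands highest in control cells.

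The abundant nucleolar proteins include the genes of this set with the highest levels per transcript length. NPM1 (chr5:171387116-171411137, plus strand), or nucleophosmin, a chaperone of ribosomal proteins, averaged 746 FPKM over the 8 libraries, and NCL (chr2:231453531-231483641, minus strand), or nucleolin, which binds the precursor RNA, averaged 291 FPKM. NPM1 had 763 and 621 CPM in control cells, 1195 and 1155 in mimic cells, 925 and 910.3 in siRNA cells, and 1141 and 1096 in double cells. The control replicates differed more from each other than those of the other groups, and both lay below all other libraries. The mimic raised NPM1 1.70-fold (log2 0.76 ± 0.10, adjusted p 7.8e-05, edgeR) and the siRNA 1.33-fold (0.41 ± 0.10, adjusted p 0.0062). Under importin8 siRNA the mimic added 0.29 ± 0.10 (adjusted p 0.049), a call lost without any 1 of the 6 libraries other than control cells (adjusted p 0.0704 to 0.195). NCL, at 528 and 527 CPM in control cells and 733 to 857 elsewhere, rose by 0.51 with the mimic and 0.50 with the siRNA. NOLC1, which accompanies small nucleolar ribonucleoproteins into the nucleolus, had 74.4 and 69.6 CPM in control cells and 105 to 133 elsewhere. It rose by 0.86 ± 0.07 with the mimic and by 0.59 ± 0.07 with the siRNA.

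LYAR (chr4:4267701-4290169, minus strand), a nucleolar zinc finger protein found in pre-ribosomal complexes, went the other way. It had 77.3 and 70.8 CPM in control cells, 41.8 and 48.1 in mimic cells, 52.3 and 53.6 in siRNA cells, and 56.6 and 53.6 in double cells. Control cells lay above every other library. The mimic lowered LYAR by a log2 fold change of -0.72 ± 0.08 (adjusted p 3e-05, edgeR) and the siRNA by -0.48 ± 0.08 (adjusted p 0.00068). In mimic-treated cells the siRNA gave 0.29 ± 0.08 (adjusted p 0.019), a call lost without mimic replicate 1 and without double replicate 1, at 0.20 and 0.26 (adjusted p 0.143 and 0.118).

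All 4 box C/D genes were called higher with the mimic under control siRNA, where 28.9% of all genes tested were, at unequal size. RRP9 (chr3:51933430-51941941, minus strand), a specific protein of the U3 ribonucleoprotein that guides early cleavage, had 9.18 and 9.33 CPM in control cells, 22.2 and 21.2 in mimic cells, 19.3 and 18.7 in siRNA cells, and 22.2 and 23.8 in double cells. Control cells lay far below the other groups, which were close together. RRP9 was 2.35-fold higher with the mimic (log2 1.23 ± 0.09, adjusted p 1.3e-06, edgeR) and 2.05-fold higher with the siRNA (1.03 ± 0.09, adjusted p 1e-05). NOP58, a core protein of the box C/D class, had 64.0 and 61.0 CPM in control cells, 106 and 114 in mimic cells, 113 and 124 in siRNA cells, and 138 and 138 in double cells. Its level was highest with both agents, and it rose by 0.81 with the mimic, by 0.92 with the siRNA and by 0.33 with the siRNA in mimic-treated cells. FBL, the methyltransferase fibrillarin, and NOP56, another core protein, moved less, by 0.35 ± 0.12 and 0.31 ± 0.10 with the mimic. Both calls were lost without control replicate 2, where the values were 0.17 and 0.17 (adjusted p 0.129 and 0.122), and without mimic replicate 1, where they were 0.28 and 0.29 (adjusted p 0.157 and 0.101). The call of NOP56 was also lost without mimic replicate 2, at 0.34 (adjusted p 0.06). The control libraries differed for both genes, with 125 and 96.2 CPM for FBL and 139 and 113 CPM for NOP56.

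The box H/ACA genes differed among themselves. NOP10, the smallest protein of the complex, had 19.6 and 14.5 CPM in control cells and 28.9 to 37.9 CPM in the other libraries, and rose 2.14-fold with the mimic (log2 1.10 ± 0.14) and 1.88-fold with the siRNA (0.91 ± 0.14). DKC1, the pseudouridine synthase dyskerin, rose with the mimic by 0.36 ± 0.08 (adjusted p 0.0039, edgeR), and was not called with the siRNA, at 0.22 ± 0.08 (adjusted p 0.054). It was called there in 5 alternatives, with limma-voom, library totals, no filter, the replicate block or without control replicate 1 (adjusted p 0.00224 to 0.049). NHP2 was higher in the importin8 siRNA groups, with 21.2 and 18.2 CPM in control cells, 19.5 and 18.6 in mimic cells, 24.4 and 23.2 in siRNA cells, and 23.8 and 24.2 in double cells. It was called higher with the siRNA in both mimic arms, by 0.27 ± 0.09 and 0.33 ± 0.09. These calls were not firm: the former was lost without control replicate 2 or either siRNA library (adjusted p 0.0682 to 0.211), and the latter without any library of the 2 groups compared (adjusted p 0.054 to 0.103). GAR1, the remaining core protein, lay between 12.9 and 16.2 CPM in all 8 libraries and was called in no comparison, except lower with the siRNA under control mimic with upper quartile scaling (-0.27, adjusted p 0.0433). Proteins that work in 1 complex thus had transcripts that moved by unequal amounts, from -0.05 for NHP2 to 1.10 for NOP10 with the mimic under control siRNA.

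Of the 10 small subunit genes, 9 were higher with the mimic under control siRNA (28.9% of all genes tested) and 9 with the siRNA under control mimic (25.4%). UTP15 (chr5:73565443-73583377, plus strand), of the complex that starts on the nascent precursor, had 6.08 and 6.53 CPM in control cells, 10.1 and 9.89 in mimic cells, 17.8 and 16.9 in siRNA cells, and 15.1 and 14.4 in double cells. The 4 groups did not overlap. The siRNA raised UTP15 2.75-fold (log2 1.46 ± 0.10, adjusted p 3e-06, edgeR), the most of the 35 genes in that comparison, and the mimic 1.58-fold (0.66 ± 0.11, adjusted p 0.00042). UTP20, a large scaffold protein, was likewise lowest in control cells and higher with the siRNA than with the mimic, with 26.1 and 29.9 CPM in control cells, 35.3 and 43.5 in mimic cells and 54.5 to 59.8 in the 4 libraries with importin8 siRNA. It rose by 1.08 ± 0.11 with the siRNA and by 0.49 ± 0.11 with the mimic. WDR43 and HEATR1, of the same early complex as UTP15, rose about equally with either agent. WDR43 had 80.7 and 74.9 CPM in control cells and 153 to 178 elsewhere, and was 2.04-fold and 2.02-fold higher with the mimic and the siRNA. Adding the second agent raised WDR43 in some alternatives only. With only the libraries compared, edgeR gave 0.18 for the mimic under importin8 siRNA (adjusted p 0.0174) and 0.16 for the siRNA in mimic-treated cells (adjusted p 0.0412). HEATR1 had 74.8 and 84.2 CPM in control cells and 126 to 151 elsewhere.

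RRP12, an export and maturation factor, had 23.2 and 26.1 CPM in control cells, 50.2 and 55.2 in mimic cells, 51.2 and 51.4 in siRNA cells, and 65.5 and 63.0 in double cells. The group with both agents was the highest, and the groups with either agent alone overlapped. RRP12 was called higher in all 4 comparisons of 2 groups, at 1.10, 0.32, 1.06 and 0.29 for the mimic under control and importin8 siRNA and the siRNA under control mimic and mimic. The call of 0.32 was lost without either siRNA library or double replicate 1 (adjusted p 0.0533 to 0.0727), and that of 0.29 without mimic replicate 1 or either double library (adjusted p 0.0564 to 0.116). UTP18 and BYSL, which act on the early and the late precursor of this subunit, rose by 0.80 and 0.81 with the mimic and by 0.91 and 0.71 with the siRNA. NOP14 and NOB1 rose less. NOB1, the nuclease that makes the last cut of the small subunit RNA, had 108 and 96.5 CPM in control cells and 132 to 150 elsewhere, and rose by 0.38 with the mimic and 0.50 with the siRNA. NOP14 rose by 0.43 with the mimic, by 0.23 with the siRNA and by 0.24 with the mimic under importin8 siRNA. The call of 0.23 was lost without control replicate 2 or siRNA replicate 2 (adjusted p 0.0812 and 0.117), and that of 0.24 without any library of the 2 groups compared (adjusted p 0.0721 to 0.158). UTP14A is uncertain. Its expected counts were 34.7 and 11.4 in control cells, 128 and 106 in mimic cells, 48.2 and 19.2 in siRNA cells, and 242 and 34.9 in double cells. Replicates differed by more than 2-fold in every group except mimic cells, whose libraries lay above both control libraries. It has a near-identical retrocopy, so reads may be divided between the copies. Its log2 fold change of 2.40 ± 1.13 with the mimic under control siRNA was not called (adjusted p 0.13). It was called there in 4 of the alternatives, with the replicate block, with only the libraries compared and without either double library (adjusted p 0.00516 to 0.0185), and under importin8 siRNA without double replicate 2, at 2.96 (adjusted p 0.0195). It is left out of the plot of mimic effects.

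All 6 large subunit genes were higher with the mimic alone (28.9% of all genes tested) and with the siRNA alone (25.4%). PES1, BOP1 and WDR12 form the PeBoW complex, which is needed for maturation of the large subunit RNA. PES1 had 48.4 and 43.7 CPM in control cells, 94.2 and 97.0 in mimic cells, 84.5 and 79.6 in siRNA cells, and 98.7 and 100.1 in double cells. BOP1 had 24.6 and 23.7, 54.6 and 46.8, 41.3 and 42.0, and 50.5 and 57.2 CPM in these groups. WDR12 had 32.7 and 30.3, 62.7 and 61.4, 61.4 and 55.9, and 74.8 and 75.5 CPM. In all 3, both control libraries lay below all others, and siRNA cells were the lowest of the other groups. The mimic raised PES1 2.08-fold, BOP1 2.10-fold and WDR12 1.97-fold, and the siRNA raised them 1.78-fold, 1.72-fold and 1.86-fold. The 3 also rose with the mimic under importin8 siRNA, by 0.28 ± 0.07, 0.37 ± 0.09 and 0.36 ± 0.07 (adjusted p 0.01, 0.011 and 0.003, edgeR). The call of PES1 there was lost without siRNA replicate 2 (0.24, adjusted p 0.0929), and that of BOP1 without either siRNA library or double replicate 2 (adjusted p 0.0531 to 0.0849). WDR12 kept its call there in all 17 alternatives. WDR12 also rose with the siRNA in mimic-treated cells, by 0.28 ± 0.07, a call lost without replicate 2 of either group compared (adjusted p 0.0583 and 0.0529). NOP2, a methyltransferase of the large subunit RNA, had 52.0 and 47.4 CPM in control cells and 67.7 to 78.4 elsewhere, and rose by 0.61 with the mimic and 0.48 with the siRNA. NOP16 had 35.4 and 29.8 CPM in control cells and 54.9 to 66.9 elsewhere, and RRS1, which helps bring the small ribosomal RNA of the large subunit into the particle, had 11.5 and 12.9 in control cells and 18.8 to 21.5 elsewhere.

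Whether the effect of the mimic depends on importin8 is the question the crossed design asks, and it was tested as the effect under importin8 siRNA minus the effect under control siRNA. This difference was called below 0 for 24 of the 35 genes, where 17.1% of all genes tested were, and above 0 for 1 gene, LYAR, where 14.2% were. The median was -0.54 (range -1.05 to 0.78), and that of all genes tested was -0.02. The most negative values were -1.05 ± 0.20 for NOP10, -0.98 ± 0.13 for POLR1E, -0.95 ± 0.12 for RRP9 and -0.90 for UTP15 and NOP16 (adjusted p 0.004, 0.00043, 0.00029, 0.0012 and 0.00031, edgeR). For each of these the mimic raised the gene under control siRNA and was not called under importin8 siRNA, except RRP9, where a rise of 0.28 ± 0.08 was called (adjusted p 0.031). That call of RRP9 was lost without any library of the 2 groups compared (adjusted p 0.06 to 0.16), and those of NOLC1 (0.22) and NOP58 (0.22) were lost without 3 of these 4 libraries each (adjusted p 0.0553 to 0.184 and 0.096 to 0.222). By role, the difference was called below 0 for 6 of 6 large subunit genes, 8 of 10 small subunit genes, 2 of 4 box C/D genes, 1 of 4 box H/ACA genes, 3 of 4 abundant nucleolar proteins and 4 of 7 genes for transcription of ribosomal RNA. For MYC it was -0.71 ± 0.09 (adjusted p 0.00034). The same number is the effect of the siRNA with the mimic minus its effect with the control mimic, so it also describes the siRNA. The control libraries enter all of these values, and control cells stood apart in the sums above.

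Of the 24 genes below 0, 18 kept the call under each of the 16 alternatives run for this test. The other 6 were NCL, NPM1, POLR1C, RRS1, TCOF1 and UTP20. TCOF1 (-0.25 ± 0.08, adjusted p 0.042) and POLR1C (-0.45 ± 0.15, adjusted p 0.048) lost it in 11 and 10 alternatives, TCOF1 without any 1 of the 8 libraries (adjusted p 0.0515 to 0.159) and POLR1C without any 1 of the 8 except control replicate 1 (adjusted p 0.0667 to 0.152). NPM1 (-0.48) lost it without any 1 of the 6 libraries outside control cells (adjusted p 0.0514 to 0.08). UTP20 (-0.54) lost it without control replicate 1, mimic replicate 2, either siRNA library or double replicate 2 (adjusted p 0.054 to 0.0968), and NCL (-0.36) without the same libraries other than control replicate 1 (adjusted p 0.0723 to 0.0886). RRS1 (-0.62) lost it with DESeq2 alone (adjusted p 0.0532). LYAR, at 0.78 ± 0.11 (adjusted p 0.00063), kept its call above 0 in all 16.

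**Figure D4:**
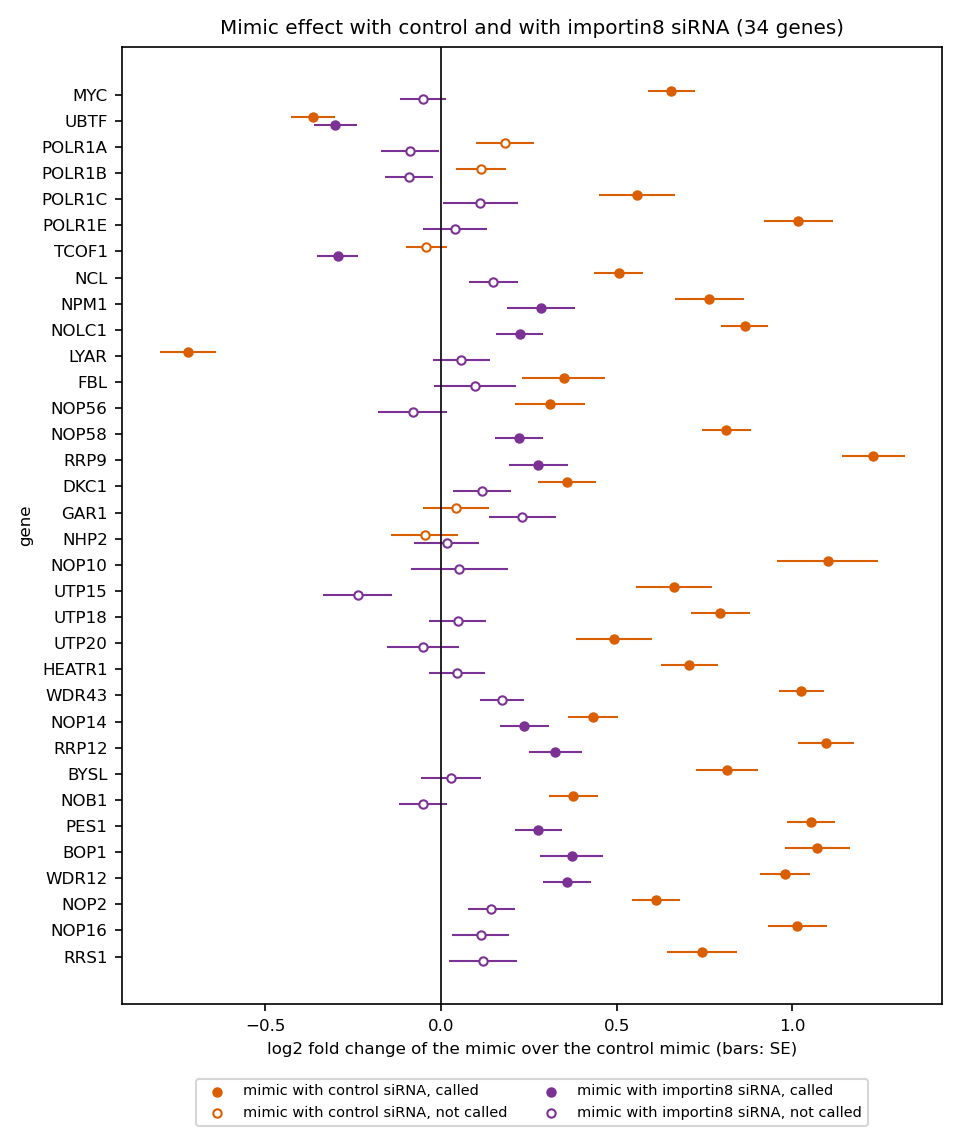
Log2 fold change of the mimic over the control mimic (x axis, bars 1 SE) for 34 of the genes (rows; UTP14A is left out), with control siRNA (orange) and with importin8 siRNA (purple); filled points were called at an adjusted p under 0.05. Most orange points lie between 0.3 and 1.2 and most purple points near 0. UBTF, NHP2, GAR1, NOP14 and POLR1B are among the genes with smaller gaps between the colours, as is TCOF1, whose difference was called below 0.

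Promoter windows from 250 bases before to 50 bases after the annotated start (RefSeq, GRCh38.p14) were matched for 27 of the 35 genes. The E-box CACGTG, which reads the same on both strands, was found in the windows of 13 of these 27 genes (48.1%), against 11.8% of the 12682 tested genes with a window. By window, it was in 13 of 32 (40.6%) against 8.79% of 18237. The looser pattern CANNTG, which contains CACGTG and also the seed complement's CACCTG, was in 77.8% of the 27 genes against 68.6%. The seed complement CACCTGT on either strand was in none of the 32 windows and in 3.26% of the 18237. A match is a description of the letters, and says nothing about which factor was bound in these cells.

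The windows of UTP18, NOP10 and RRP9 are shown whole, because these genes rose with each agent alone and the first and second hold 2 matches each, in capitals. They lie on chr17:51260296-51260595 (plus strand), chr15:34343087-34343386 (minus strand) and chr3:51941855-51942154 (minus strand).
UTP18: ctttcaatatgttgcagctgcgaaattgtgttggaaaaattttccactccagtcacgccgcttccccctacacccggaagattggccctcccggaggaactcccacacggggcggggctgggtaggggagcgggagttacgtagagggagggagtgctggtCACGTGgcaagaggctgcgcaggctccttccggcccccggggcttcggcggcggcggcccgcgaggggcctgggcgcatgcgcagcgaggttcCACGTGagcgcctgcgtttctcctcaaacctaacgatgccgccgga
NOP10: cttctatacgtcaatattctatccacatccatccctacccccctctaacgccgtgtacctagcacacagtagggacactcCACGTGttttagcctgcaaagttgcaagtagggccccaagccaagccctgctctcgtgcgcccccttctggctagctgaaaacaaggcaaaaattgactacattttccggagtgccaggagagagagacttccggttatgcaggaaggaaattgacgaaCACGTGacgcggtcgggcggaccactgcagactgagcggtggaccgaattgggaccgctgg
RRP9: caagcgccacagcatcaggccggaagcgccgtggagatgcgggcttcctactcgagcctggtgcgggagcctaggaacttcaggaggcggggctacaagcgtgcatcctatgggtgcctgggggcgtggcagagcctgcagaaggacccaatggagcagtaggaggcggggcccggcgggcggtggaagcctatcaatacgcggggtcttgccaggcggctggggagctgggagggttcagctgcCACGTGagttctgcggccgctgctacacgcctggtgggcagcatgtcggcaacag

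The 15 matches lay between -241 and 36 bases from the start, and 11 of them at -50 or later. Shorter stretches are shown for 5 other genes to compare a gene that rose with each agent (WDR43, PES1, BYSL), a gene that moved little (FBL) and the gene that fell (LYAR). They lie on chr2:28894658-28894687 (plus), chr22:30591880-30591909 (minus), chr6:41921515-41921544 (plus), chr19:39846356-39846385 (minus) and chr4:4290068-4290097 (minus).
WDR43: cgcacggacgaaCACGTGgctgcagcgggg
PES1: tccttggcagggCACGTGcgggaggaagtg
BYSL: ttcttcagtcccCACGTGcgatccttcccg
FBL: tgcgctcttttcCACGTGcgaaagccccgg
LYAR: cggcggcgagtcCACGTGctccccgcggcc
Genes with and without the motif overlapped in their changes. With the mimic under control siRNA, 10 of the 13 genes with CACGTG were higher and 1 lower (median 0.80, range -0.72 to 2.40), and 10 of the 14 without it were higher and 1 lower (median 0.44, range -0.36 to 1.01). The upper end of 2.40 is UTP14A alone, which was not called and is uncertain. Of all genes tested, 28.9% were higher and 29.5% lower there. With the siRNA under control mimic, 9 of 13 were higher and 1 lower (median 0.71) against 11 of 14 higher and none lower (median 0.45). Over all genes tested, these shares were 25.4% higher and 21.6% lower.

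**Figure D5:**
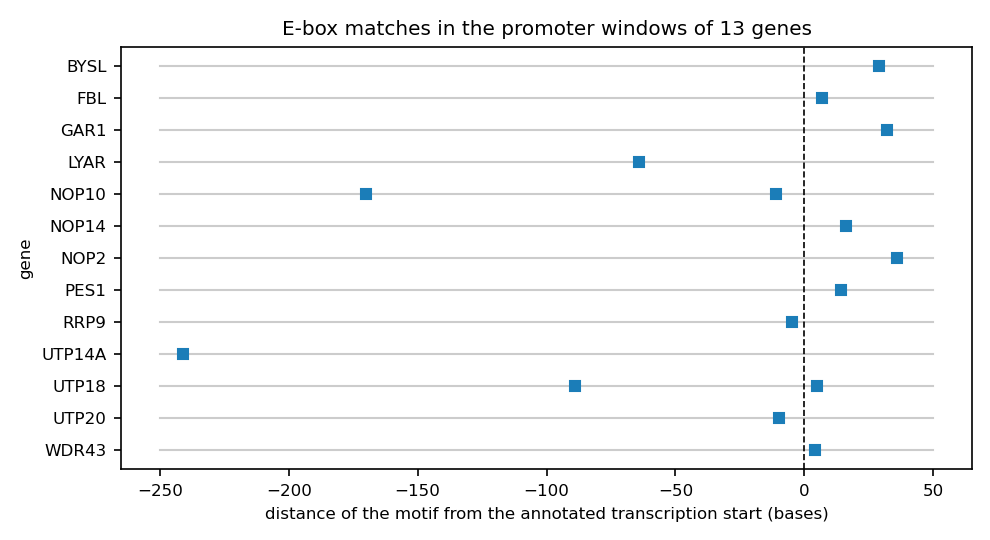
Position of each CACGTG match (squares) in the 300-base promoter windows (grey lines) of the 13 genes that hold it, in bases from the annotated start (x axis, dashed line at the start). Of the 15 matches, 11 lie at -50 or later, and that of UTP14A lies farthest upstream at -241.

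Most other genes of the pathway also rose with either agent alone. A list of 116 other genes for RNA polymerase I, assembly of both subunits and the RNA exosome, which trims precursor RNAs, was examined, and all 116 were tested. With the mimic under control siRNA, 88 were higher (28.9% of all genes tested) and 7 lower (29.5%), with a median of 0.55, and with the siRNA under control mimic, 89 were higher (25.4%) and 3 lower (21.6%), with a median of 0.62. Under importin8 siRNA the mimic raised 31 (15.0%) and lowered 9 (16.7%), with a median of 0.09, or 20 and 14 with library totals, and 11 and 7 without siRNA replicate 2. In mimic-treated cells the siRNA raised 28 (17.3%) and lowered 10 (16.2%), with a median of 0.06, or 18 and 7 with DESeq2, 16 and 7 without mimic replicate 2 and 16 and 8 without double replicate 1. The difference between the mimic effects was called below 0 for 79 (17.1%) and above 0 for 2 (14.2%), with a median of -0.49.

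Of these 116, the genes named here are those with the largest called changes and a mean of at least 100 counts. RCL1, a small subunit processing factor, rose most of these with the mimic, from 9.66 ± 0.590 CPM in control cells to 54.7 ± 0.162 in mimic cells (SD, n = 2), a log2 fold change of 2.50 ± 0.08, and also rose under importin8 siRNA, by 1.03 ± 0.08. The RNA helicase gene DDX10 (1.84 ± 0.09) and the exosome gene EXOSC5 (1.77 ± 0.15) followed under control siRNA. Under importin8 siRNA, RSL24D1 (0.67 ± 0.08) and TAF1A (0.57 ± 0.14) came next. The call of TAF1A was lost with DESeq2 (adjusted p 0.0909) and without siRNA replicate 2 or double replicate 1. By the same limits, the most lowered by the mimic were RRP7A (-1.12 ± 0.08), MPHOSPH10 (-0.81 ± 0.09) and WDR18 (-0.68 ± 0.09) under control siRNA, and TSR1 (-0.78 ± 0.10), EXOSC6 (-0.63 ± 0.17) and RRP7A (-0.57 ± 0.08) under importin8 siRNA. The call of EXOSC6 was lost without siRNA replicate 2 or double replicate 1 (highest adjusted p 0.17 over all alternatives). With the siRNA under control mimic, the polymerase I subunit gene CD3EAP rose by 1.83 ± 0.17, from 3.27 ± 0.972 to 11.6 ± 0.0431 CPM (SD, n = 2), BRIX1 by 1.36 ± 0.08 and NOC3L by 1.25 ± 0.10. RSL1D1 fell, with -1.18 ± 0.08, as did RRP7A (-0.47 ± 0.08) and RRP1B (-0.38 ± 0.10), whose call was lost without control replicate 2 or siRNA replicate 1 (highest adjusted p 0.117). In mimic-treated cells the siRNA raised ZNRD1 (0.78 ± 0.13), RIOK1 (0.70 ± 0.08) and WDR18 (0.64 ± 0.09) and lowered EXOSC5 (-0.61 ± 0.14), RCL1 (-0.54 ± 0.07) and RRP1B (-0.52 ± 0.10). The call of EXOSC5 there was lost with DESeq2 (adjusted p 0.0519) and without mimic replicate 1 or double replicate 1. RRP7A was thus lower with either agent, unlike most of the pathway.

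The partners and antagonists of MYC did not move together. MAX, its obligate partner, averaged 29.8 CPM in control cells, 45.0 in mimic cells, 31.1 in siRNA cells and 37.6 in double cells, and rose with the mimic under control siRNA by 0.59. Under importin8 siRNA the mimic gave 0.27, and in mimic-treated cells the siRNA gave -0.26. Both calls were lost with DESeq2 (adjusted p 0.118 and 0.132) and without any 1 of the 4 importin8 siRNA libraries. The former was also lost with library totals (edgeR, adjusted p 0.0923) and the latter without mimic replicate 2. MXD1 and MXD4, which compete with MYC for MAX, fell with the siRNA under control mimic, by -1.34 and -1.49. MXD4 also fell with the mimic, by -1.23, from 88.4 CPM in control cells to 37.8, and MXD1 gave 0.12 there and was not called. MLX rose with the mimic by 0.83 and with the siRNA by 0.52. MXI1 rose with the mimic by 1.17. It was called in 2 more comparisons in some alternatives only. With DESeq2 these rises were 0.61 with the mimic under importin8 siRNA (adjusted p 0.00367) and 0.47 with the siRNA under control mimic (adjusted p 0.0281). MNT fell with the siRNA under control mimic by -0.37, a call lost with DESeq2 (adjusted p 0.065) and without siRNA replicate 2. It was also called lower with the siRNA in mimic-treated cells. That call was lost with DESeq2 (-0.27, adjusted p 0.252), with no filter, and without any library outside control cells. MYCL rose with the mimic by 3.58 from a level of 0.245 CPM, with at most 72 counts in a library, and MYCN, with at most 31.3 counts, and MGA were called in no comparison. MGA was called lower with the mimic under control siRNA in 5 alternatives (adjusted p 0.0168 to 0.0451) and higher with the siRNA in mimic-treated cells without mimic replicate 2 (adjusted p 0.0326), and MYCN lower there with the replicate block (adjusted p 0.025). MXD3, with at most 19.1 counts, was not tested. Of 15 MYC target genes outside the nucleolus, 11 were higher (28.9% of all genes tested) and 1 lower (29.5%) with the mimic under control siRNA (median 0.64), and 11 were higher (25.4%) and none lower (21.6%) with the siRNA under control mimic (median 0.52). The gene that was lower, CDC25A, a phosphatase that starts DNA replication, is named here after its values were seen. It averaged 12.8 CPM in control cells, 4.07 in mimic cells, 27.7 in siRNA cells and 10.3 in double cells, so that the mimic lowered it in both siRNA arms, by -1.66 and -1.42, and the siRNA raised it in both mimic arms, by 1.11 and 1.34.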

How the data were processed

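For each library the deposited tables hold a column headed Read Count and a column headed Expression. They were made from single-end reads of 50 bases of polyadenylated RNA. These columns were taken to hold expected counts and FPKM, which is a reading that the headers do not state. The submitters' processing notes name RSEM 1.2.8, HISAT2 2.0.4, Bowtie2 2.2.5 and GRCh38.p12 without roles. Strand handling is not stated in the labels, so overlapping and near-identical genes are uncertain. Columns were matched to samples by reading their abbreviated names, an interpretation that no key was used to check.

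The deposited expected counts were rounded, filtered with filterByExpr (17715 genes kept), scaled by TMM (factors 0.961 to 1.06) and fitted over all 8 libraries in edgeR 4.0.16 (R 4.3.3) with a robust quasi-likelihood test. A call is an adjusted p under 0.05 (Benjamini-Hochberg, all 17715 genes). The SE, which is approximate, divides the absolute log2 fold change by the root of F. The authors' FPKM was used only to compare levels between genes. Each library counted as a sample. Counts of replicates differed beyond sampling noise (chi-square over degrees of freedom 4.30 to 9.80), which does not show whether they were independent cultures. The script was tested on data simulated with the same spread for all genes, which does not show its error rate in these libraries.

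The 35 genes and the other lists were chosen with earlier results of these data known. Genes named besides these were IPO8, 10 MYC partners and antagonists, and, per comparison, the 3 largest called rises and falls among the 116 other pathway genes with a mean of at least 100 counts. The alternatives were 17 (16 for the difference): DESeq2 1.42.0, limma-voom (limma 3.58.1), other scaling and filters, a replicate block, only the libraries compared, and leaving out each library. The search of untranslated regions was chosen after seeing the data, with the longest coding transcript per gene.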

Additional observations from a re-analysis of the deposited data

Results flagged for a closer look

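Each gene below had a mimic effect that differed between the siRNA arms in edgeR's quasi-likelihood test of the difference itself (effect under importin8 siRNA minus effect under control siRNA, log2 scale, adjusted p under 0.05 over all genes tested). Among the 35 genes, LYAR was above 0, at 0.78. The large subunit genes PES1 (-0.78), BOP1 (-0.70), WDR12 (-0.62), NOP2 (-0.47), NOP16 (-0.90) and RRS1 (-0.62) were below 0. So were the small subunit genes UTP15 (-0.90), UTP18 (-0.75), UTP20 (-0.54), HEATR1 (-0.66), WDR43 (-0.85), RRP12 (-0.77), BYSL (-0.79) and NOB1 (-0.43). Among ribonucleoprotein genes these were NOP58 (-0.59), RRP9 (-0.95) and NOP10 (-1.05), and among nucleolar proteins NCL (-0.36), NPM1 (-0.48) and NOLC1 (-0.64). For transcription of ribosomal RNA they were MYC (-0.71), POLR1C (-0.45), POLR1E (-0.98) and TCOF1 (-0.25). The calls of NCL, NPM1, POLR1C, RRS1, TCOF1 and UTP20 were lost in some alternatives, as given above.

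Among the other pathway genes named, RSL1D1 (0.71) and RRP7A (0.55) were above 0. Those below 0 were EXOSC5 (-1.70), CD3EAP (-1.65), DDX10 (-1.49), RCL1 (-1.48), EXOSC6 (-1.27), NOC3L (-1.13), BRIX1 (-0.82), RSL24D1 (-0.79), TSR1 (-0.73) and TAF1A (-0.68). The call of TAF1A was lost with DESeq2 and without replicate 1 of the control, mimic or siRNA cells or replicate 2 of the double cells. Among MYC partners and antagonists, MXD4 (1.30) and MXD1 (0.50) were above 0, and MYCL (-2.16) and MLX (-0.54) below. The call of MYCL was lost with DESeq2 and without replicate 2 of the control or siRNA cells or replicate 1 of the mimic or double cells. No group was large enough to be examined for outlying libraries.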

How the results depend on the processing

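Counts of the 35 genes called with either agent alone held, at 27 to 30 for the mimic and 25 to 31 for the siRNA over all alternatives, and at 20 to 26 for the difference between the mimic effects. With upper quartile scaling 2 rather than 1 of the 35 were lower with the siRNA under control mimic. The smaller effects moved. For the mimic under importin8 siRNA, library totals gave 7 of the 35 genes (4 higher and 3 lower) in place of 11 and, of the 116 other pathway genes, 20 higher and 14 lower in place of 31 and 9, and DESeq2 gave 19 higher. Leaving out 1 library gave 3 to 13 of the 35 (2 to 11 higher, 1 to 2 lower), 18 to 44 of the 116 (11 to 33 higher, 6 to 11 lower) and 3545 to 6087 of all genes in place of 5607. For the siRNA in mimic-treated cells, DESeq2 gave 7 of the 35, all 7 higher, in place of 11, and 25 of the 116 in place of 38, 18 of them higher. Leaving out 1 library gave 7 to 12 of the 35 (7 to 12 higher) and 23 to 42 of the 116 (16 to 29 higher). For the difference, 2 to 4 of the 116 were above 0. Small effects among the 35 also lost their call in settings that kept all 8 libraries. DESeq2 lost NOP58, RRP9 and NOP14 for the mimic under importin8 siRNA, POLR1C, NHP2 and NOP14 for the siRNA under control mimic, and UBTF, LYAR, NHP2 and RRP12 for the siRNA in mimic-treated cells (adjusted p 0.0516 to 0.241). Library totals lost NPM1, NOLC1, NOP58, RRP9 and NOP14 for the mimic under importin8 siRNA and UBTF for the siRNA in mimic-treated cells (adjusted p 0.0574 to 0.113), and called UTP15 lower with the mimic under importin8 siRNA (-0.31, adjusted p 0.0461). Upper quartile scaling lost FBL and NOP56 for the mimic under control siRNA and NOP56, NHP2 and NOP14 for the siRNA under control mimic (adjusted p 0.0519 to 0.0913). No called gene named here changed direction. The cause of these shifts was not tested, and leaving out a library also lowers the number of libraries. The replicate block gave 30, 11, 30, 11 and 25 of the 35 in the 5 comparisons, in the order above with the difference last. Same-numbered libraries deviated together little over all genes tested (correlations of -0.00335 to 0.0867). Pairing by number was thus not evident over all genes, which does not settle it for single genes. Depth limits the rare genes, of which MYCL, MYCN and MXD3 had at most 72, 31.3 and 19.1 counts in a library.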
